A study of Mus musculus with 4 samples.

Results

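The genes described here are 5 that encode parts of the MHC class II antigen presentation pathway, Cd74, H2-Aa, H2-Ab1, H2-Eb1 and H2-Eb2, of 15301 genes listed in at least 1 of 4 single-cell RNA-seq libraries of mouse colon intraepithelial lymphocytes (IELs). They were chosen by name with earlier results on the same matrices known, in which Cd74, H2-Eb1 and H2-Eb2 stood lower in TCRγδ Tcf7KO cells, so their levels and differences are given as a description, with no test. IELs are T cells that live between the epithelial cells of the gut. Live CD3+ CD8α+ cells carrying a TCRγδ (the label's TCRγ) or a TCRβ chain were sorted from colon and loaded on the 10x 3′ v2 platform. This gave 4 libraries, TCRγδ Tcf7KO, TCRγδ Tcf7WT, TCRβ Tcf7KO and TCRβ Tcf7WT, with 1 library in each group. All 4 carry the strain label E8IcreTcf7fl/fl, so that the genotype label is what separates Tcf7KO from Tcf7WT. In this strain Cre is driven by the E8I enhancer of Cd8a and acts on floxed alleles of Tcf7, which encodes the transcription factor TCF-1. The age of the mice and how many were pooled are not given in the sources used here. With 1 library per group there is no replicate check and no p-value. The intervals are exact 95% intervals on the counted molecules (UMIs) or cells, and they cover counting error only.

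MHC class II molecules are pairs of an alpha and a beta chain that show peptides from taken-up material to CD4 T cells. The invariant chain, encoded by Cd74, holds the peptide groove during transport and is cut away by cathepsins, after which the H2-DM proteins exchange the last fragment for a peptide. In mice the pathway is known mainly from B cells, dendritic cells and macrophages, where the regulator CIITA switches the genes on through an RFX, CREB and NF-Y complex at the X and Y boxes of their promoters; gut epithelium can take it up under interferon-gamma. Mouse T cells are generally held not to express it.

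H2-Ab1 (ENSMUSG00000073421.6) and H2-Aa (ENSMUSG00000036594.15) encode the beta and alpha chains of the I-A molecule, and H2-Eb1 (ENSMUSG00000060586.11) encodes the beta chain of I-E. H2-Eb2 (ENSMUSG00000067341.6) encodes a further beta chain related to that of H2-Eb1. These 4 genes lie within 83.7 kb of chromosome 17 in GRCm38, the build named in the submitters' processing notes. In the GENCODE M21 annotation H2-Ab1 spans chr17:34257689-34269419 and H2-Aa chr17:34282744-34287823 on the minus strand, while H2-Eb1 spans chr17:34305867-34316674 and H2-Eb2 chr17:34325665-34341412, both on the plus strand, as is H2-Ab1. Cd74 lies on another chromosome. The antisense gene Gm20513 overlaps H2-Eb1, and the sources used here do not state whether counting used strand, so reads of this pair cannot be told apart. H2-Eb1 and H2-Eb2 share no stretch of 50 bases in their longest coding transcripts, where the longest identical stretch is 44 bases. In their last 500 bases, where 3′ reads fall, the longest is 10 bases.

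The promoters of 3 of the 5 genes were in the RefSeq table used (GRCm38.p6), and they are shown because all 3 carry the same pair of motifs although their levels, given below, differ. Each line is the sense strand, 5′ to 3′, upstream of the RefSeq start, and the capitals mark the X box core GCAACT and then the Y box core CTGATTGG. H2-Aa is from chr17:34287824-34287944 on the minus strand, H2-Eb1 from chr17:34305736-34305866 on the plus strand, and H2-Eb2 from chr17:34325503-34325639 on the plus strand.
H2-Aa: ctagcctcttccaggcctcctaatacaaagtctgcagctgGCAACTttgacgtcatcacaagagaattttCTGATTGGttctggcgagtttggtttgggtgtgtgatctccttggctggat
H2-Eb1: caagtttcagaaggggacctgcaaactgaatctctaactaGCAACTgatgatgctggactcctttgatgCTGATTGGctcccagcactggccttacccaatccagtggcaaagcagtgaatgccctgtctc
H2-Eb2: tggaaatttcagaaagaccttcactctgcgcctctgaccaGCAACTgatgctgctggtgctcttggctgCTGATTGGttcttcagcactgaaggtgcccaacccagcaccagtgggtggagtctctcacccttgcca

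The cores are 24 bases apart in H2-Aa and 23 bases apart in H2-Eb1 and H2-Eb2. On either strand, the X box core was found in 10.9% of 32851 RefSeq promoters of the same length, the Y box core in 4.10%, and both in 0.466%. The X core followed by the Y core at a spacing of 23 to 24 bases, a spacing read from these same genes, was found in 3 promoters, those of H2-Aa, H2-Eb1 and H2-Eb2. A match describes the letters only. The X box core starts 81 bases before the RefSeq start in H2-Aa and 91 bases before it in H2-Eb1, against 132 bases in H2-Eb2.

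The libraries held 1511, 1888, 5785 and 7603 cells, of which 1489 TCRγδ Tcf7KO, 1800 TCRγδ Tcf7WT, 5580 TCRβ Tcf7KO and 7149 TCRβ Tcf7WT cells had at least 1 UMI of Cd3e, a chain of the T cell receptor complex, and these cells are used throughout. Their median depth was 4361 and 3251.5 UMIs in TCRγδ Tcf7KO and Tcf7WT cells, and 2897 and 2467 UMIs in TCRβ Tcf7KO and Tcf7WT cells. Tcf7, the targeted gene, stood over all cells at 14.6 CPM (a gene's UMIs as a part of its cells' total, scaled to a common sum) in TCRγδ Tcf7KO against 45.7 CPM in TCRγδ Tcf7WT, and at 107 CPM in TCRβ Tcf7KO against 148 CPM in TCRβ Tcf7WT. Transcripts counted at their 3′ end do not show whether the floxed part is present. Any pair of libraries shared 1 to 10 cell barcodes. Each matrix lists only part of the genes, and H2-Aa is not listed for TCRβ Tcf7KO, so that gene has no value there and sums that involve this library are over the other 4 genes.

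Class II transcripts were most abundant in TCRγδ Tcf7WT cells for each of the 5 genes. Cd74 stood at 13.1 CPM in TCRγδ Tcf7KO, 58.5 CPM in TCRγδ Tcf7WT and 1.18 CPM in TCRβ Tcf7KO, with TCRβ Tcf7WT at 8.40 CPM. H2-Aa stood at 2.18 CPM in TCRγδ Tcf7KO, 43.1 CPM in TCRγδ Tcf7WT and 6.53 CPM in TCRβ Tcf7WT. For both genes the intervals of the listed libraries were separate, and TCRγδ Tcf7WT was far above the rest, but the Cd74 and H2-Aa levels of TCRγδ Tcf7KO rest on 1 cell, described below.

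H2-Ab1 stood at 5.08 CPM in TCRγδ Tcf7KO, 44.8 CPM in TCRγδ Tcf7WT and 2.30 CPM in TCRβ Tcf7KO, with TCRβ Tcf7WT at 10.9 CPM. H2-Eb1 stood at 4.93 CPM in TCRγδ Tcf7KO, 70.2 CPM in TCRγδ Tcf7WT and 2.80 CPM in TCRβ Tcf7KO, with TCRβ Tcf7WT at 10.9 CPM. Both beta chain genes thus had one order, TCRγδ Tcf7WT above TCRβ Tcf7WT, then TCRγδ Tcf7KO, then TCRβ Tcf7KO. The H2-Eb1 intervals of the lowest neighbours, 3.42 to 6.89 CPM in TCRγδ Tcf7KO and 2.08 to 3.69 CPM in TCRβ Tcf7KO, overlapped, while those of H2-Ab1 (3.54 to 7.06 and 1.65 to 3.11 CPM) did not. The same 1 cell of TCRγδ Tcf7KO held 8 of its 35 H2-Ab1 UMIs and 10 of its 34 H2-Eb1 UMIs. Without it the levels there were 3.92 CPM for H2-Ab1 and 3.48 CPM for H2-Eb1. Whether the H2-Ab1 intervals stay separate without that cell was not tested.

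H2-Eb2 had another pattern. It stood at 16.8 CPM in TCRγδ Tcf7KO, 52.8 CPM in TCRγδ Tcf7WT and 19.2 CPM in TCRβ Tcf7KO, with TCRβ Tcf7WT at 39.0 CPM. Its levels spread over a much narrower range than those of the other 4 genes, and the intervals of the Tcf7KO libraries (13.9 to 20.2 CPM in TCRγδ and 17.2 to 21.3 CPM in TCRβ) overlapped.

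**Figure D1:**
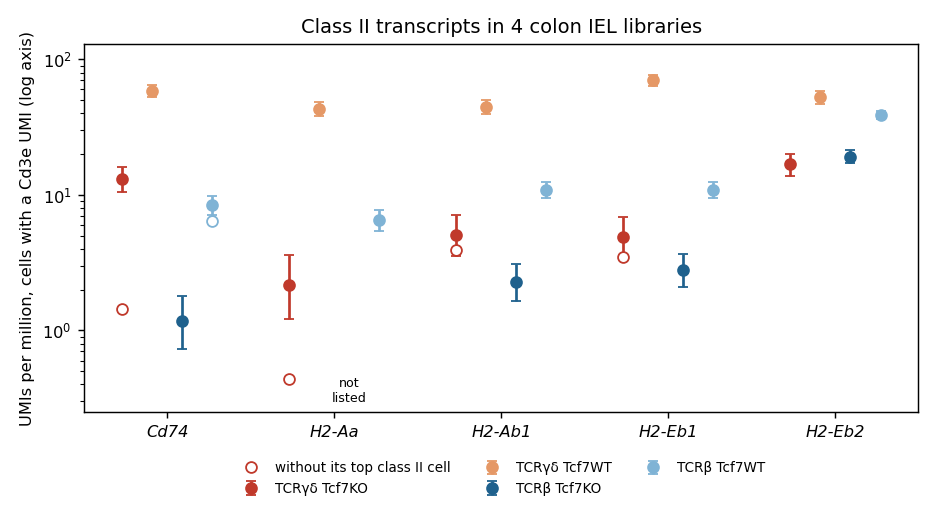
CPM of the 5 class II genes (log axis) in cells with a Cd3e UMI, for each library, with exact 95% Poisson intervals as bars and, as open circles, the value without the 1 cell richest in the gene's UMIs where that cell held much of them. TCRγδ Tcf7WT is the highest library for every gene, and the Cd74 point of TCRγδ Tcf7KO drops to 1.45 CPM without 1 cell.

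One cell set the Cd74 level of TCRγδ Tcf7KO. It held 110 of the library's 290 class II UMIs, with 80 of the 90 Cd74 UMIs and 12 of the 15 H2-Aa UMIs, and without it Cd74 stood at 1.45 CPM and H2-Aa at 3 UMIs. The cell had 2252 UMIs in all, 1 of them Cd3e and none of Cd3d, Cd3g, Trdc, Trac or Cd8a, beside 3 UMIs of Cd79b and 7 of Ighm, both on the list of B cell markers. Ighm was found in 54.5% and Cd79b in 11.6% of the TCRγδ Tcf7KO cells, so holding them is not particular to this cell. In TCRβ Tcf7WT the richest cell held 69 class II UMIs, 39 of them Cd74, and 17 UMIs of B cell markers, with 1 Cd3e UMI. The richest cells of TCRγδ Tcf7WT were unlike these, with 32, 26 and 21 class II UMIs beside 8, 5 and 7 Cd3e UMIs, 9, 6 and 8 Trdc UMIs (the TCRδ constant region) and 9, 2 and 18 Cd8a UMIs, and with 3, 0 and 0 UMIs of B cell markers.

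The make-up of the class II UMIs set these cells apart. UMIs are 3′ tags with no length correction, so shares are compared between sets of cells and not between genes. Cd74 was 72.7% of the class II UMIs in the richest TCRγδ Tcf7KO cell and 56.5% in the richest TCRβ Tcf7WT cell, and H2-Eb2 was 0% in both. In the remaining cells Cd74 was 5.56% of class II UMIs in TCRγδ Tcf7KO, 21.2% in TCRγδ Tcf7WT, 3.79% in TCRβ Tcf7KO and 8.84% in TCRβ Tcf7WT. In the same cells H2-Eb2 was 64.4% in TCRγδ Tcf7KO, 19.9% in TCRγδ Tcf7WT, 76.2% in TCRβ Tcf7KO and 54.1% in TCRβ Tcf7WT. In both sorts the H2-Eb2 share was higher in Tcf7KO, and the Cd74 share lower. The TCRβ shares have unlike bases, since H2-Aa is not listed for TCRβ Tcf7KO. In the remaining TCRβ Tcf7WT cells H2-Aa was 8.05% of the class II UMIs.

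**Figure D2:**
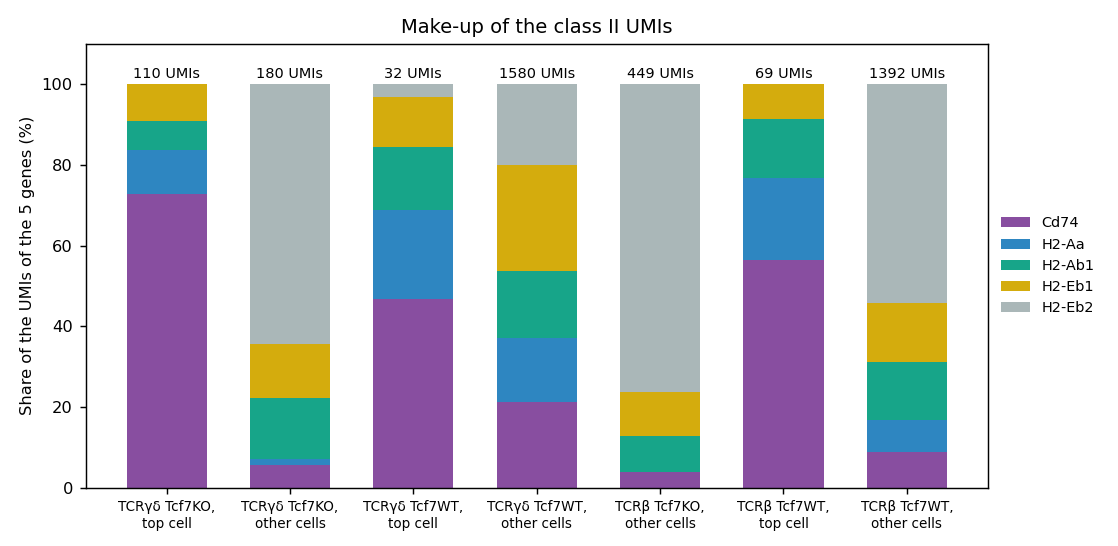
Share of the class II UMIs that each of the 5 genes makes up (percent), in the single cell richest in class II UMIs and in all other cells with a Cd3e UMI of each library; the richest TCRβ Tcf7KO cell, with 5 UMIs, is left out, and the number of UMIs stands above each bar. H2-Eb2 is at 0% in the richest TCRγδ Tcf7KO and TCRβ Tcf7WT cells and between 19.9% and 76.2% in the other cells of the libraries. H2-Aa is not listed for TCRβ Tcf7KO.

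Between genotypes, class II transcripts were lower in Tcf7KO in both sorts. The 5 genes summed gave 42.1 CPM in TCRγδ Tcf7KO against 269 CPM in TCRγδ Tcf7WT, a log2 ratio of -2.68 (-2.86 to -2.50), or 6.40-fold lower. Without the richest cell of each library the log2 ratio was -3.34. Among genes with at least 100 UMIs over both libraries, 0.779% were at least 2-fold lower in TCRγδ Tcf7KO, beside all 5 class II genes, which were chosen for such differences. The log2 ratios were -2.16 for Cd74 (-2.51 to -1.82), -4.31 for H2-Aa (-5.17 to -3.56), -3.14 for H2-Ab1 (-3.69 to -2.63), -3.83 for H2-Eb1 (-4.38 to -3.32) and -1.65 for H2-Eb2 (-1.97 to -1.34). The Cd74 and H2-Aa values rest on the 1 cell. Without the richest cell of each library the log2 ratio was -5.27 for Cd74, and -6.59 for H2-Aa (-8.88 to -5.03, on 3 against 251 UMIs). The median over the 5 genes was -3.14, beside -0.04 over all genes tested.

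In the TCRβ sort the sum over the 4 genes listed in both libraries was 25.4 CPM in Tcf7KO against 69.2 CPM in Tcf7WT, a log2 ratio of -1.44 (-1.60 to -1.29). Each of the 4 listed genes was at least 2-fold lower, where 0.368% of all genes tested were. The log2 ratio was -2.84 for Cd74 (-3.57 to -2.18), -2.25 for H2-Ab1 (-2.77 to -1.76), -1.96 for H2-Eb1 (-2.43 to -1.51) and -1.03 for H2-Eb2 (-1.22 to -0.84). H2-Eb2 lies at the 2-fold limit, with -0.96 under TMM and DESeq2 scaling. In both genotype comparisons H2-Eb2 had the smallest difference of the class II genes. Whether fewer cells express the genes or each cell holds less RNA cannot be told apart from a sum, and the shares of cells are given below.

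Between sorts, TCRγδ cells were above TCRβ cells in Tcf7WT. The 5 genes summed gave 269 CPM in TCRγδ Tcf7WT against 75.7 CPM in TCRβ Tcf7WT, a log2 ratio of 1.83 (1.73 to 1.93). In that comparison 2.47% of all genes tested were at least 2-fold higher, as were 4 of the 5 class II genes, with log2 ratios of 2.80 for Cd74, 2.72 for H2-Aa, 2.04 for H2-Ab1 and 2.69 for H2-Eb1. H2-Eb2 had a log2 ratio of 0.44 (0.24 to 0.63). These comparisons share libraries with those of genotype, so their values are not independent of them.

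In Tcf7KO the sum over the 4 genes listed in both was 39.9 CPM in TCRγδ against 25.4 CPM in TCRβ, a log2 ratio of 0.65 (0.43 to 0.87), and 0.03 without the richest cell of each library. Here 2.86% of all genes tested were at least 2-fold higher. Cd74 and H2-Eb2 reached the minimum of 100 UMIs, and Cd74 alone was at least 2-fold higher (log2 ratio 3.47), at 0.61 without the richest cells. The log2 ratio of H2-Eb2 was -0.19, with an interval of -0.50 to 0.12 that holds 0.

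The shares of cells followed the same order. In the TCRγδ sort, 132 of 1489 Tcf7KO cells held at least 1 UMI of the 5 genes (8.87%, Clopper-Pearson interval 7.47 to 10.4), against 671 of 1800 Tcf7WT cells (37.3%, 35.0 to 39.6). In the TCRβ sort, 375 of 5580 Tcf7KO cells did (6.72%, 6.08 to 7.41), against 928 of 7149 Tcf7WT cells (13.0%, 12.2 to 13.8). H2-Aa could not add to the TCRβ Tcf7KO share, as it is not listed there. With every cell thinned to 1 depth, the 10th percentile of TCRβ Tcf7WT cells, the shares were 3.49%, 24.4%, 3.57% and 9.27% in the same order, after 26, 243, 419 and 630 shallower cells had been left out. TCRγδ Tcf7KO cells were the deepest and still had a low share, so the order of the Tcf7WT and Tcf7KO shares within each sort was kept at equal depth.

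Counting Cd74, H2-Aa, H2-Ab1 and H2-Eb1 without H2-Eb2, 3.29% of TCRγδ Tcf7KO cells, 29.6% of TCRγδ Tcf7WT cells, 1.63% of TCRβ Tcf7KO cells and 5.05% of TCRβ Tcf7WT cells had a UMI. The TCRβ Tcf7KO share is over Cd74, H2-Ab1 and H2-Eb1 only. H2-Eb1 was found in 1.34% of TCRγδ Tcf7KO cells against 16.9% of TCRγδ Tcf7WT cells, and in 0.860% of TCRβ Tcf7KO cells against 2.31% of TCRβ Tcf7WT cells. H2-Eb2 was found in 6.18% of TCRγδ Tcf7KO cells against 13.1% of TCRγδ Tcf7WT cells, and in 5.25% of TCRβ Tcf7KO cells against 8.70% of TCRβ Tcf7WT cells. Most detections were of 1 molecule: in TCRγδ Tcf7WT, 114 of 179 Cd74 cells, 233 of 304 H2-Eb1 cells and 177 of 236 H2-Eb2 cells held 1 UMI of the gene, and the most in 1 cell were 15, 7 and 7.

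Free RNA in droplets can give such single molecules. Epithelial-like cells, taken as those with at least 20 UMIs of epithelial markers (a limit set after the values were seen), held a class II UMI in 1 of 37 cells of the TCRγδ libraries together (2.70%, 0.0684 to 14.2, median 7352 UMIs) and in 0 of 14 of the TCRβ libraries, which allows a share of up to 21.4%. Naive-like T cells, with at least 2 of 5 markers, had a UMI of any of the 5 genes in 8.53% of 129 TCRβ Tcf7KO cells (4.33 to 14.7, median 3249 UMIs), against 6.68% of the other TCRβ Tcf7KO cells (6.03 to 7.37, median 2889 UMIs). In TCRβ Tcf7WT the shares were 4.55% of 154 naive-like cells (1.85 to 9.14, median 2712.5 UMIs) and 13.2% of the others (12.4 to 14.0, median 2462 UMIs), but without H2-Eb2 they were 2.60% (0.712 to 6.52) and 5.10% (4.60 to 5.65), with overlapping intervals. The share of TCRβ Tcf7KO cells with a class II UMI is thus not above that of cells that should lack the genes, so such a UMI alone is not read there as expression. Over the 5 genes the share in TCRβ Tcf7WT is above that of its naive-like cells. For TCRγδ Tcf7WT the epithelial-like cells cannot serve as such a check. Of the 37 cells, 20 are of TCRγδ Tcf7KO (median 22219 UMIs), and 0 of these held a class II UMI. The 17 of TCRγδ Tcf7WT (median 2754 UMIs) included 1 with a class II UMI, and they are too few for a comparison. The TCRγδ Tcf7KO share at equal depth, 3.49%, was close to the 3.57% of TCRβ Tcf7KO, which is counted without H2-Aa.

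Class II genes were found together in the same cells, most often in the Tcf7WT libraries. At least 2 of the 5 genes were found in 14 TCRγδ Tcf7KO cells (0.940%), 268 TCRγδ Tcf7WT cells (14.9%), 14 TCRβ Tcf7KO cells (0.251%) and 130 TCRβ Tcf7WT cells (1.82%). At least 3 of Cd74, H2-Aa, H2-Ab1 and H2-Eb1 were found in 1 TCRγδ Tcf7KO cell, the one richest in class II UMIs, against 85 TCRγδ Tcf7WT cells. The same was found in 30 TCRβ Tcf7WT cells, the richest cell of that library among them, and in 0 TCRβ Tcf7KO cells. In TCRβ Tcf7KO H2-Aa is not listed, so a cell there needs all 3 of the other genes. All 5 genes were found in 12 TCRγδ Tcf7WT cells and 2 TCRβ Tcf7WT cells.

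**Figure D3:**
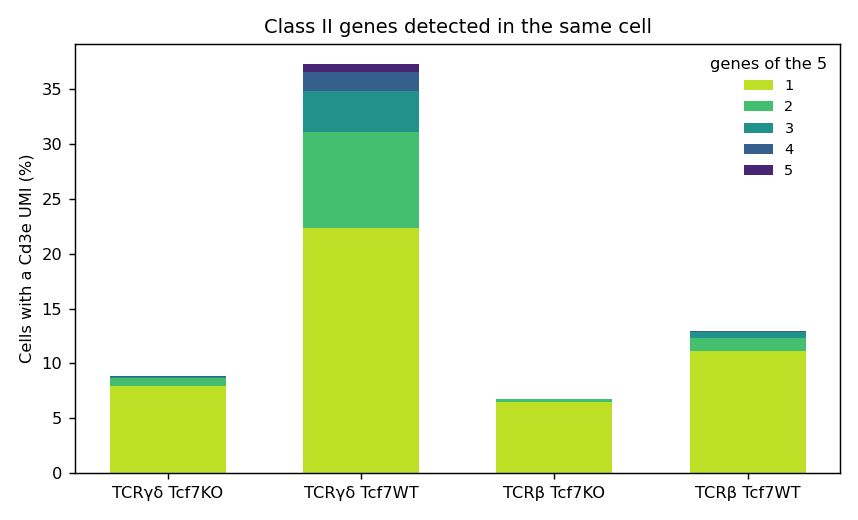
Share of cells with a Cd3e UMI (percent) in which 1 to 5 of the class II genes were detected, by library. In TCRγδ Tcf7WT 14.9% of cells held 2 or more of the genes, against 0.940% in TCRγδ Tcf7KO, 0.251% in TCRβ Tcf7KO and 1.82% in TCRβ Tcf7WT. H2-Aa is not listed for TCRβ Tcf7KO and could not be detected there.

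In TCRγδ Tcf7WT H2-Eb1 was found in 53.6% of the 179 cells with Cd74 (46.0 to 61.1) and in 12.8% of the 1621 without it (11.2 to 14.6). Cd74 was found in 39.3% of the 178 cells with H2-Aa and in 6.72% of those without. Over the 12 ordered pairs of Cd74, H2-Aa, H2-Ab1 and H2-Eb1, the share of cells with one gene was 3.57 to 5.87 times as high in cells with the other as in cells without it, and the intervals were separate in all 12. For the 8 pairs with H2-Eb2 the ratio was 1.66 to 2.03. Deeper cells hold more of any gene, but with cells thinned to equal depth the ratios were 4.47 to 6.59 among the 4 genes and 1.76 to 2.38 with H2-Eb2.

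**Figure D4:**
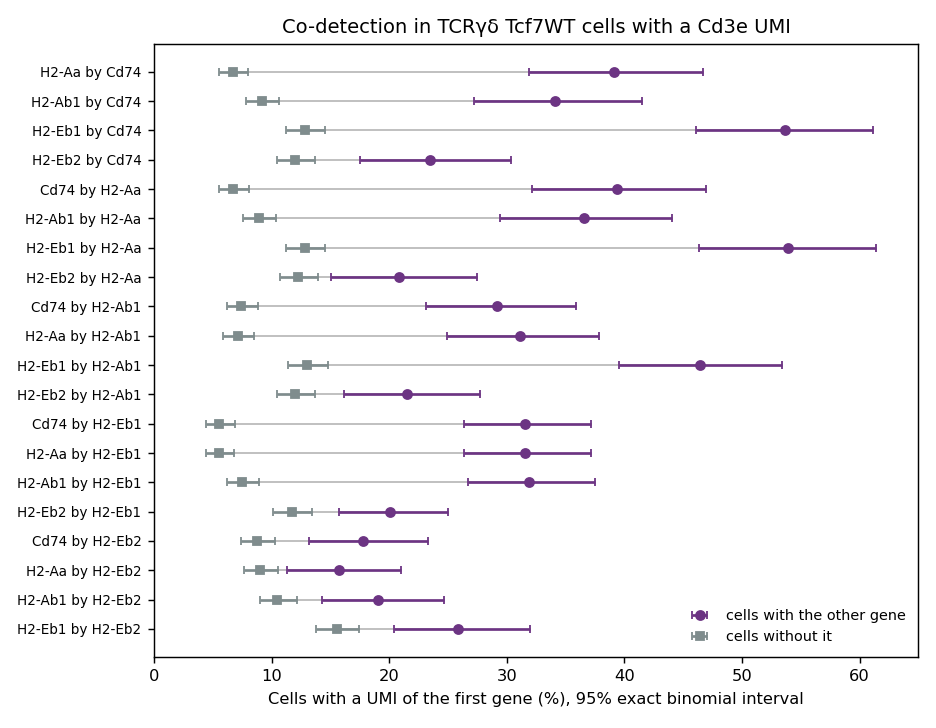
Share of TCRγδ Tcf7WT cells with a UMI of the gene named first (percent), among cells with (circles) and without (squares) a UMI of the gene named second, with exact 95% binomial intervals. Among Cd74, H2-Aa, H2-Ab1 and H2-Eb1 the circles lie between 29.2% and 53.9% and the squares between 5.48% and 13.0%, while pairs with H2-Eb2 lie closer together.

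TCRβ Tcf7WT cells had the same pairing in fewer cells. H2-Eb1 was found in 53.8% of the 78 cells with H2-Aa and in 1.74% of those without, and Cd74 in 43.6% against 0.636%. The 78 cells include the richest cell of the library, with 17 UMIs of B cell markers and 1 Cd3e UMI. H2-Eb2 was found in 21.8% of the H2-Aa cells and in 8.56% of the others, and at equal depth no interval of its 8 pairs was separate. In TCRβ Tcf7KO, where few cells held any of the genes, H2-Eb1 was found in 4 of the 38 cells with H2-Ab1 (10.5%, 2.94 to 24.8) and in 0.794% of the others (0.577 to 1.06). The 11 cells with Cd74 held H2-Eb1 in 2 cells and H2-Ab1 and H2-Eb2 in 0. Among cells with H2-Ab1 or H2-Eb1, the intervals were separate from those of cells without in 3 of the 4 ordered pairs with Cd74 and each other. At equal depth this did not hold. There H2-Eb1 was found in 1 of 19 cells with H2-Ab1 (5.26%, 0.133 to 26.0) and in 0.292% of the others (0.163 to 0.481). Cd74 was found with H2-Ab1 or H2-Eb1 in 0 cells. In TCRγδ Tcf7KO no cell besides the one richest in class II UMIs held 3 of the 4 genes, and 6 cells held 2. H2-Eb1 was found there in 4 of the 9 cells with Cd74 (44.4%, 13.7 to 78.8), that richest cell among them. It was found in 1.08% of the cells without Cd74 (0.619 to 1.75). H2-Eb1 was also found in 2 of the 26 cells with H2-Ab1, but the intervals overlapped (0.946 to 25.1 against 0.731 to 1.94).

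T cell transcripts were present in the TCRγδ Tcf7WT cells with class II transcripts. TCRγδ Tcf7WT cells with 3 or 4 of Cd74, H2-Aa, H2-Ab1 and H2-Eb1 had 2201 CPM of Trdc, 1215 CPM of Cd3d and 1296 CPM of Cd8a, against 2033, 1365 and 1601 CPM in cells with 0 of the 4. Cd8a was lower in the class II cells, with separate intervals (1174 to 1426 against 1563 to 1640 CPM). Markers of other cell types were summed in the same way. The B cell list stood at 178 CPM in TCRγδ Tcf7WT cells with at least 2 of the 5 genes (153 to 206) against 213 CPM in cells without a class II UMI (198 to 229), the macrophage list at 3.93 against 5.06 CPM, and the epithelial list at 177 against 242 CPM. These 3 lists were not higher in the class II cells. The dendritic cell list, of which Itgax and Xcr1 are listed, stood higher, at 67.8 CPM (52.8 to 85.8) against 48.0 CPM (41.1 to 55.8), and in TCRβ Tcf7WT at 66.1 CPM (44.2 to 94.9) against 17.6 CPM (15.6 to 19.8); its part in the results was not tested. In TCRγδ Tcf7WT 3 of 10 B cell, 2 of 8 dendritic and 3 of 10 macrophage markers are listed, and Ms4a1, Flt3, Csf1r and C1qa are among those that are not. Of those listed, Ighm (963 UMIs), Cd79b (232 UMIs) and Itgax (319 UMIs), an integrin also found on intestinal T cells, gave most of the UMIs.

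Genes found with class II transcripts were compared between TCRγδ Tcf7WT cells with (671 cells, median 3551 UMIs) and without (1129 cells, median 3082 UMIs) a class II UMI, the 12 highest by ratio being named, with no test since cells share 1 library. Of 8375 genes, 38 (0.454%) were at least 2-fold higher in the class II cells. Scin, which encodes an actin-severing protein, stood at 136 against 28.1 CPM, a log2 ratio of 2.27 (1.94 to 2.61), and was found in 26.8% against 6.29% of cells. H2-DMb1, a chain of the peptide exchange protein H2-DM, stood at 19.0 against 4.50 CPM (2.08, 1.23 to 3.0). Gzmf had the highest ratio, 4.97, but 62 of its 64 UMIs were in 1 cell.

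The other named genes, by their log2 ratios, included Cd6 (2.04), a surface receptor of T cells, Il2ra (1.97) and Il7r (1.81), which encode receptor chains for interleukins 2 and 7, Rhod (1.88), a small GTPase, and Klf3 (1.76), a transcription factor. They also included Lgals1 (1.75), encoding galectin-1, Klrk1 (1.60), the receptor NKG2D, Ms4a4b (1.60), and Havcr2 (1.55), the inhibitory receptor TIM-3. The 6 lowest were Pclaf, a replication factor, at -2.10, with Zfhx3, Osbpl5, Srsf12, Zfp219 and Hist1h2ab between -1.96 and -1.56. Thy1, a T cell surface protein, stood at 300 CPM in class II cells against 158 CPM in the others (0.92, 0.76 to 1.08).

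By the number of the 4 genes Cd74, H2-Aa, H2-Ab1 and H2-Eb1 found in a TCRγδ Tcf7WT cell (0, 1, 2, and 3 or 4), Scin stood at 26.2, 134, 211 and 232 CPM, and H2-DMb1 at 4.61, 12.6, 21.5 and 58.9 CPM. Il7r stood at 8.74, 25.2, 37.1 and 96.1 CPM. Each was lowest in cells with none of the 4 genes and highest in those with 3 or 4, and the cells' median depths were 3137.5, 3202.5, 3761 and 3716 UMIs. H2-Eb2 stood at 43.9, 61.1, 66.3 and 118 CPM along the same steps. Ciita, the gene of the class II regulator, stood at 5.34, 5.82, 7.80 and 3.10 CPM on 22, 6, 4 and 1 UMIs, a depth at which no trend could be detected.

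**Figure D5:**
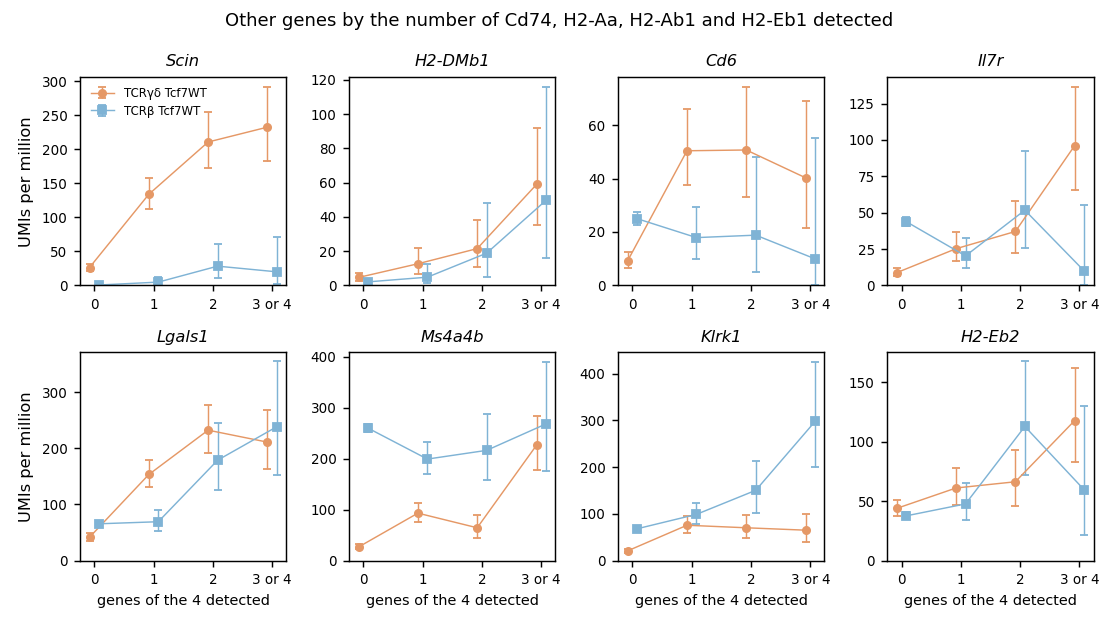
CPM of 8 genes (vertical axes, linear) in TCRγδ Tcf7WT (circles) and TCRβ Tcf7WT (squares) cells, by the number of Cd74, H2-Aa, H2-Ab1 and H2-Eb1 detected in the cell, with exact 95% Poisson intervals. H2-DMb1 is highest at 3 or 4 genes in both libraries, with 58.9 CPM in TCRγδ Tcf7WT and 49.6 CPM in TCRβ Tcf7WT, while Scin reaches 232 CPM in TCRγδ Tcf7WT and 19.9 CPM in TCRβ Tcf7WT.

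In TCRβ Tcf7WT 928 cells with and 6221 without a class II UMI were compared, and 0.838% of genes were at least 2-fold higher in class II cells. None of the 12 highest genes was among the 12 of TCRγδ Tcf7WT. These lists come from 9908 and 8375 genes, and any pair of libraries shared at most 1 of 12, so this is not read as a result. The class II cells also differ in make-up. A UMI of the 4 genes without H2-Eb2 was found in 361 of the 928 cells, against 532 of 671 in TCRγδ Tcf7WT. The 12 highest of TCRβ Tcf7WT included Bub1 (2.01), Rad54l (1.81), E2f1 (1.75) and Kif15 (1.59), which act in the cell cycle, chromosome segregation or DNA repair. Scin stood at 0.496, 4.77, 28.2 and 19.9 CPM in cells with 0, 1, 2, and 3 or 4 of the 4 genes, on 9, 4, 6 and 2 UMIs. H2-DMb1, counted over the cells with any of the 4 genes, had 13 UMIs (11.3 CPM) against 37 UMIs (2.04 CPM) in the others, a log2 ratio of 2.47 (1.43 to 3.41), but 1.0 (-0.04 to 1.94) with class II cells taken by all 5 genes. Gzma, the cytotoxic protease granzyme A, stood at 1376, 6439, 8542 and 9254 CPM in cells with 0, 1, 2, and 3 or 4 of the genes. It was found in 8.93%, 33.3%, 41.4% and 33.3% of these cells. In cells with 3 or 4 of the genes 301 of its 932 UMIs were in 1 cell. Scin and H2-DMb1 were thus lowest in cells with 0 of the 4 genes in TCRβ Tcf7WT too, though on few UMIs.

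The rest of the presentation pathway, a list of 34 genes in 7 roles, was mostly less than 2-fold apart between genotypes. Of 27 genes measured in the TCRγδ sort (at least 20 UMIs over both libraries), 4 were at least 2-fold lower in Tcf7KO, Rfx5, H2-DMb1, Cd80 and Ifng, and 0 higher, with a median log2 ratio of -0.08. Of all 11506 genes with as many UMIs, 2.57% were lower and 4.02% higher. Ciita stood at 5.08 CPM in TCRγδ Tcf7KO against 5.51 CPM in TCRγδ Tcf7WT, on 35 and 33 UMIs (-0.12, -0.85 to 0.61). Of its partners, Rfx5 stood at 1.60 against 5.35 CPM (-1.74, -2.88 to -0.72), while Rfxap, Rfxank, Nfya, Nfyb, Nfyc and Creb1 were within -0.42 and 0.09. H2-DMb1 was lower in Tcf7KO, at 3.48 against 10.4 CPM (-1.57, -2.32 to -0.87), and H2-DMa, its partner chain, stood at 11.3 against 14.9 CPM (-0.39, -0.85 to 0.06).

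The genes that process the invariant chain and peptides were near equal in the TCRγδ sort. Ctss, the cathepsin that cuts the invariant chain, stood at 36.3 CPM in Tcf7KO against 38.3 CPM in Tcf7WT, and Ifi30, a lysosomal thiol reductase, at 41.4 against 44.4 CPM. Cd80, a costimulatory ligand, had 3 UMIs in Tcf7KO against 17 in Tcf7WT (-2.71, -5.12 to -0.92). Ifng, which encodes interferon-gamma, an inducer of Ciita in other cells, stood at 30.2 CPM in TCRγδ Tcf7KO against 134 CPM in TCRγδ Tcf7WT (-2.15, -2.38 to -1.93). Irf1, a transcription factor gene that responds to it, stood at 167 against 231 CPM (-0.47). The class I genes H2-K1, H2-D1 and B2m differed by -0.03, -0.07 and -0.03.

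In the TCRβ sort 1 of 31 measured pathway genes was at least 2-fold lower in Tcf7KO, Cd80, and 1 was higher, Cd4, the coreceptor that binds class II, with 86 UMIs in Tcf7KO against 6 in Tcf7WT, where 1.91% of all genes with as many UMIs were lower and 0.858% higher. Ciita stood at 3.53 CPM in TCRβ Tcf7KO against 5.39 CPM in TCRβ Tcf7WT (-0.61) and H2-DMb1 at 2.18 against 2.59 CPM (-0.25). Between sorts in Tcf7WT, 4 of 30 measured genes were at least 2-fold higher in TCRγδ and 4 lower, beside 4.35% and 4.16% of all genes. H2-DMa (14.9 CPM in TCRγδ against 5.08 CPM in TCRβ, 1.55) and H2-DMb1 (10.4 against 2.59 CPM, 2.0) were higher. H2-Oa (-1.30) and H2-Ob (-1.51), chains of the H2-O protein that restrains H2-DM, were lower in TCRγδ. Ciita did not differ beyond counting error, at 5.51 against 5.39 CPM (0.03, -0.58 to 0.61).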

How the data were processed

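Colon IELs of 4 sorted groups were profiled by 10x 3′ single-cell RNA-seq (v2), per the labels' protocols. The authors deposited UMI counts per gene and cell for each library; Seurat 3.0.0 and the builds GRCm38 and mm10 are named in the submitters' processing notes, and the steps and filters are not given in the sources used here. The matrices hold counts for 13331 to 14661 genes per library, and a gene that a matrix does not list has no value.

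UMIs were summed over cells with a Cd3e UMI and divided by these cells' total (5986315 to 19294323 UMIs) to give CPM, with exact Poisson intervals. Ratios carry exact intervals conditional on both counts, shares Clopper-Pearson intervals, and a count of 0 was set to 3 UMIs. Cells do not serve as replicates, so groups of 1 library were compared with no test. The named genes are the 5 class II genes, Tcf7, pathway genes with at least 20 UMIs over both libraries, and the 12 highest and 6 lowest companion genes by ratio among those with at least 50 UMIs, of which the highest need 20 UMIs in class II cells. The members and lists were chosen with earlier results of these data known. Scrublet marked 1 to 6 cells per library, which is too few to have worked, so doublets were not removed and cells of mixed type were looked for by markers. Scaling alternatives used edgeR 4.0.16 and DESeq2 1.42.0 for factors only. The ratio, interval and thinning code was tested on simulated data. Software was Python with scipy 1.17.1, pandas 2.3.3 and scanpy 1.11.5.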

Additional observations from a re-analysis of the deposited data

Results flagged for a closer look

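Each result here stood out because the same contrast had opposite directions, with intervals clear of 0, in the pair of groups compared. With 1 library per group the difference between the contrasts was not tested.

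Ifng was higher in TCRγδ than in TCRβ cells in Tcf7WT (log2 ratio 1.09, 134 against 62.9 CPM) and lower in Tcf7KO (-0.73, 30.2 against 50.2 CPM). Ccr9, a chemokine receptor that guides T cells to the gut, was lower in Tcf7KO in the TCRγδ sort (-1.11, 116 against 251 CPM) and slightly higher in the TCRβ sort (0.15, 109 against 98.6 CPM). H2-K1, a class I gene, had ratios of Tcf7KO over Tcf7WT of -0.029 in TCRγδ and 0.059 in TCRβ. Cd3d had ratios of TCRγδ over TCRβ of -0.17 in Tcf7WT and 0.053 in Tcf7KO. The H2-K1 and Cd3d differences are small, and their narrow intervals come from high counts.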

How the results depend on the processing

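No value whose reported interval excludes 0 was reversed in 330 recomputed values. Only the 48 summed ratios and 198 gene ratios among them can change sign, since shares and counts cannot. Of the 330 values, 235 kept to the reported value within its interval (or 1.5 times a count) and 95 moved, and the cause was not tested. For the summed class II log2 ratio of TCRγδ Tcf7KO over Tcf7WT the values were -3.34 without the richest cell, -3.53 without cells holding marker UMIs of other types, -2.23 and -2.27 thinned to the percentile depth and to 1000 UMIs, -3.33 in cells with Cd3e, Cd3d and Cd3g and under 20 epithelial UMIs, -2.24 with each cell weighing the same and -3.10 over 4 genes without H2-Eb2. The same sum over 4 genes gave -2.27 for TCRβ Tcf7KO over Tcf7WT. The marker filter, at 2 or more UMIs and with Ighm and Epcam among the markers, dropped many cells. In the TCRγδ sort it dropped 961 of 1489 Tcf7KO and 795 of 1800 Tcf7WT cells. In the TCRβ sort it dropped 2636 of 5580 Tcf7KO and 2890 of 7149 Tcf7WT cells. It left 54 class II UMIs in 40 TCRγδ Tcf7KO cells. For TCRγδ over TCRβ in Tcf7WT the marker filter gave 2.0 and the 4 genes 2.56. For TCRγδ over TCRβ in Tcf7KO the values, in the order of the first list, were 0.031, 0.17, 1.14, 1.13, 0.031, 1.24 and 1.88. The log2 ratio of H2-Eb2 in that comparison, not past 2-fold, ranged from -0.31 to 0.06. TMM and DESeq2 factors moved no summed ratio beyond its interval.

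At the percentile depth and at 1000 UMIs, the share of cells with a class II UMI was 3.49% and 2.22% in TCRγδ Tcf7KO, against 24.4% and 19.4% in TCRγδ Tcf7WT, and 3.57% and 2.33% in TCRβ Tcf7KO, against 9.27% and 5.84% in TCRβ Tcf7WT. Asking for 2 UMIs, for 2 genes, or for any of 4 genes without H2-Eb2 gave 2.22%, 0.940% and 3.29% in TCRγδ Tcf7KO, against 18.4%, 14.9% and 29.6% in TCRγδ Tcf7WT, and 1.11%, 0.251% and 1.63% in TCRβ Tcf7KO, against 3.55%, 1.82% and 5.05% in TCRβ Tcf7WT. The marker filter gave 5.20% in TCRβ Tcf7KO and 12.1% in TCRβ Tcf7WT.

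The number of genes at least 2-fold lower and higher at minimums of 100, 20 and 300 UMIs was 70 and 110, 296 and 463, and 33 and 41 for TCRγδ Tcf7KO over Tcf7WT. It was 39 and 39, 243 and 109, and 7 and 22 for TCRβ Tcf7KO over Tcf7WT, then 230 and 250, 505 and 528, and 107 and 112 for TCRγδ over TCRβ in Tcf7WT. In Tcf7KO it was 252 and 287, 513 and 772, and 136 and 136. Companion genes at least 2-fold higher numbered 38 in TCRγδ Tcf7WT (33 to 53 over alternatives) and 83 in TCRβ Tcf7WT (83 to 248, the most with class II cells taken by the 4 genes without H2-Eb2). No paired analysis was possible because each group has 1 library and the labels give no replicate numbers.

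With 1 library per group, differences between mice, sorts and runs cannot be told apart from those of genotype or receptor. Most detections are single molecules, so a cell without a UMI is not shown to lack the transcripts. The alternatives over 4 genes and over cells with Cd3e, Cd3d and Cd3g were chosen after seeing the data.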

Other observations

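TCR gene segments were compared between TCRγδ Tcf7WT cells with and without a UMI of Cd74, H2-Aa, H2-Ab1 or H2-Eb1. Tcrg-V7, a variable segment of the TCRγ chain common in the gut, was found in 2.63% of class II cells against 7.49% of the others (log2 ratio of UMIs -1.71, -2.59 to -0.92). Trbc1, a constant segment of the TCRβ chain, had a log2 ratio of -0.60 (-0.70 to -0.49), and it was -0.53 (-0.64 to -0.41) in TCRβ Tcf7WT. Trbc2, the other constant segment, had a log2 ratio of 0.06 in TCRγδ Tcf7WT, and Trdc -0.11. Cd8b1, the beta chain of CD8, had 0 UMIs in the 85 TCRγδ Tcf7WT cells with 3 or 4 of the 4 genes, which allows up to 11.4 CPM. It was rare in the whole library, at 4.85, 8.73 and 5.85 CPM in cells with 0, 1 and 2 of the genes. Of the cells with 0 of the genes 1.03% held it, so the 0 does not show a difference.

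In TCRβ Tcf7WT, Klrk1 stood at 68.1, 99.0, 150 and 298 CPM in cells with 0, 1, 2, and 3 or 4 of the 4 genes, and Lgals1 at 65.5, 69.2, 179 and 238 CPM. Cd6 and Il7r, which were higher in the class II cells of TCRγδ Tcf7WT, had log2 ratios of -0.52 (-1.25 to 0.12) and -0.80 (-1.39 to -0.27) in TCRβ Tcf7WT cells with any of the 4 genes against the others, and -0.57 and -1.48 with class II cells taken by all 5 genes.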
